A study of Mus musculus with 4 samples.

Results

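Genes of astrocyte reactivity and homeostasis were examined in the cortex of aged mice carrying amyloid-producing transgenes and of wild-type mice. They are 10 of the 18386 gene features counted in the libraries, taken by name: 4 genes known to rise when astrocytes become reactive (Gfap, Vim, Serpina3n and Osmr) and 6 genes of the working, homeostatic astrocyte (Aqp4, S100b, Slc1a2, Slc1a3, Aldh1l1 and Gja1). Whole-transcriptome sequencing of total RNA had been done on the cortex of 4 male mice aged 12 months. The APP/PS1 group (libraries APP.3 and APP.4) held 2 APPswe/PS1ΔE9 double transgenic mice, which carry a human APP with the Swedish mutation and a human PS1 lacking exon 9, and the WT group (libraries WT.1 and WT.2) held 2 wild-type mice, which the labels give as C57BL/6 and the study's methods as C57BL/6J. The labels give both groups the strain background C57BL/6 and the same housing, and neither received an agent before the terminal anaesthesia. Each transgenic mouse came from the same line, so that the transgenes and their insertion site cannot be told apart in this design.

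Astrocytes are the glial cells that wrap synapses and blood vessels. They take up the glutamate that neurons release, clear water and potassium through channels on their end-feet, and share small molecules through gap junctions. In injury or beside amyloid deposits they become reactive, a state recognised by thicker processes filled with the intermediate filaments GFAP and vimentin, and cytokines that signal through STAT3 are among the known triggers.

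The 4 libraries held 28525117 to 43881196 assigned read counts. The mouse App gene, whose row can also take reads of the human transgene, stood at 2534 ± 206 CPM (read counts scaled to the size of the library, SD, n = 2) in APP/PS1 and 881 ± 34.0 in WT, higher in both APP/PS1 libraries. The 2 APP/PS1 libraries differed from each other more than the 2 WT libraries did, with a chi-square per degree of freedom over genes of 30.3 against 5.4. Cortical neuron markers were abundant in all 4 libraries, with summed levels of 3892 to 4793 CPM in APP/PS1 and 4437 to 4483 CPM in WT. Lists of marker genes of microglia, oligodendrocytes and hypothalamus also stood higher in APP/PS1, as given below with their values.

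All 4 reactive genes rose in APP/PS1 cortex, by 1.71-fold (Vim) to 7.06-fold (Gfap). Of the 6 homeostatic genes only Aqp4 rose past the thresholds, by 1.65-fold, and none fell. A gene was called changed when its false discovery rate was below 0.05 over all features and its fold change was at least 1.5, in edgeR's quasi-likelihood test. By that rule 5 of the 10 genes were called, all higher in APP/PS1, where 0.881% of all 18386 features were called in either direction and 0.843% were called higher. The median log2 fold change was 1.61 over the reactive genes and 0.22 over the homeostatic genes, beside -0.001 over all features. In bulk tissue, more astrocytes and more RNA per astrocyte cannot be told apart.

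**Figure D1:**
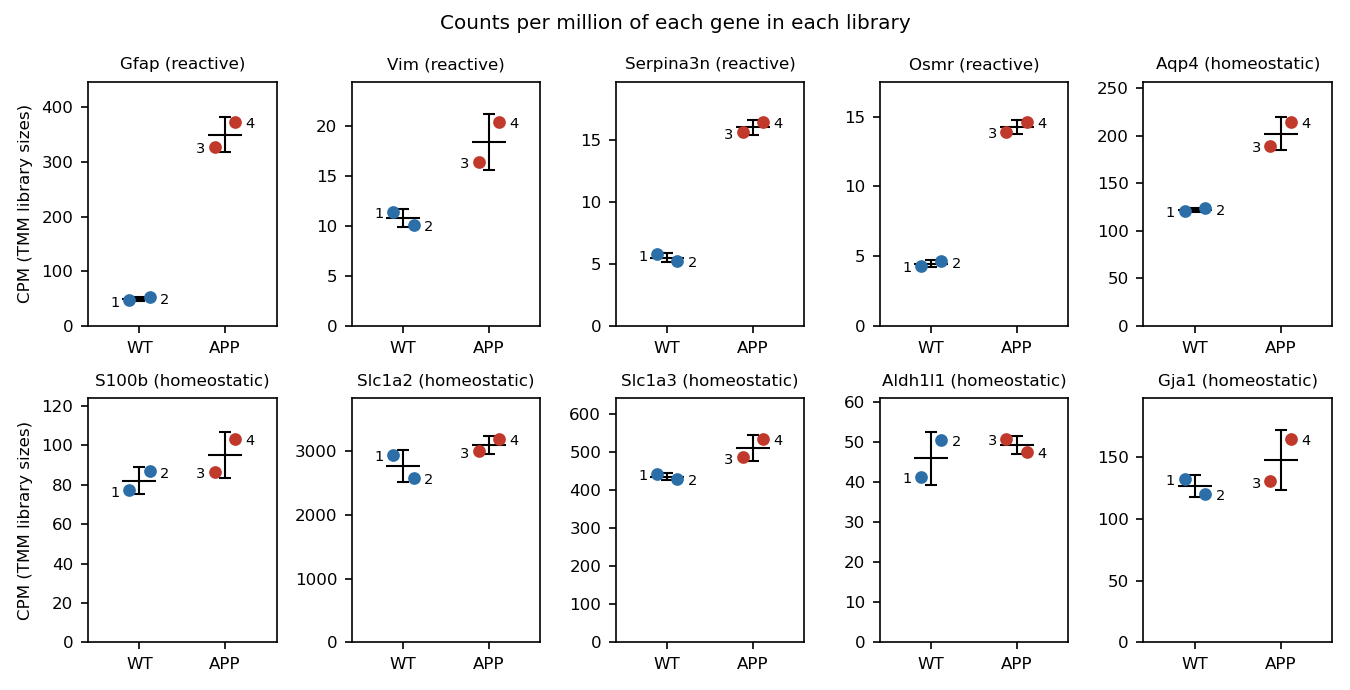
Level of each of the 10 genes in each library, in CPM on a linear axis per gene, with 1 point per mouse and the group means marked. The APP/PS1 points of Gfap, Vim, Serpina3n, Osmr, Aqp4, Slc1a2 and Slc1a3 lie above both WT points, whereas those of S100b, Aldh1l1 and Gja1 overlap them.

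Gfap encodes glial fibrillary acidic protein, the main intermediate filament of reactive astrocytes (GRCm38 chr11:102887336-102900912, minus strand). It stood at 327 CPM in APP.3 and 372 CPM in APP.4, and at 46.9 CPM in WT.1 and 52.3 CPM in WT.2. The lower APP/PS1 library thus exceeded the higher WT library several times over. The group means were 350 ± 31.8 and 49.6 ± 3.80 CPM (SD, n = 2), a log2 fold change of 2.82 with a standard error of 0.09 and a 95% interval of 2.61 to 3.03. The adjusted p in edgeR's quasi-likelihood test was 8.085e-06, and leaving out any library in turn kept the log2 fold change between 2.73 and 2.91.

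Vim encodes vimentin, the partner filament of GFAP, which endothelial and other non-neural cells also make (chr2:13573927-13582826, plus strand). Its level was 16.4 CPM in APP.3, 20.4 CPM in APP.4, 11.4 CPM in WT.1 and 10.1 CPM in WT.2. The groups did not overlap, but the gap between them was the narrowest of the reactive genes. Its log2 fold change was 0.77 with a standard error of 0.13 and an adjusted p of 0.0305 in edgeR's quasi-likelihood test. Without WT.2 the log2 fold change was 0.70 and the adjusted p was 0.112, in a fit that called 0.729% of all features, so the call on Vim rested on that library. Endothelial markers summed to between 103.5 and 105 CPM in APP/PS1 and between 101.1 and 108.1 CPM in WT, and 0 of 12 were called by any of the tools run, with 0 at an unadjusted p below 0.05 in edgeR's test.

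Serpina3n encodes a secreted serine protease inhibitor of the alpha-1-antichymotrypsin family (chr12:104406729-104414329, plus strand). The level was 15.6 CPM in APP.3, 16.4 CPM in APP.4, 5.76 CPM in WT.1 and 5.25 CPM in WT.2. The APP/PS1 libraries lay close together and far above WT, with a log2 fold change of 1.54, a standard error of 0.12 and an adjusted p of 0.000688 in edgeR's quasi-likelihood test. Serpina3n has close paralogs beside it on chromosome 12, with which reads could be shared. Of the 10 others listed only Serpina3k had a counted row, with 2 and 23 counts in the APP/PS1 libraries and 2 and 5 in the WT libraries. Serpina3n itself had 452 and 508 counts in APP/PS1, and 253 and 186 in WT. The authors had dropped transcripts under 10 reads, so fewer reads of the other paralogs cannot be seen.

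Osmr encodes the oncostatin M receptor, which pairs with gp130 and signals through JAK kinases and STAT3 (chr15:6813577-6874969, minus strand). It stood at 13.9 CPM in APP.3, 14.6 CPM in APP.4, 4.28 CPM in WT.1 and 4.63 CPM in WT.2. As with Serpina3n, each group was tight and the groups were well apart. Its log2 fold change was 1.68 with a standard error of 0.13 and an adjusted p of 0.000601 in edgeR's quasi-likelihood test.

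Aqp4 encodes aquaporin-4, the water channel of astrocyte end-feet (chr18:15389496-15410982, minus strand). It was the only homeostatic gene of the 6 that passed both thresholds. The level was 190 CPM in APP.3, 214 CPM in APP.4, 121 CPM in WT.1 and 124 CPM in WT.2. The WT libraries differed little, and both APP/PS1 libraries lay above them. The log2 fold change was 0.72 with a standard error of 0.08, a 95% interval of 0.55 to 0.90 and an adjusted p of 0.00384 in edgeR's quasi-likelihood test. Ependymal cells also express Aqp4. Their 7 counted markers summed to between 5.36 and 6.20 CPM in APP/PS1 and between 5.08 and 5.45 CPM in WT, and 0 of them were called by any of the tools run or stood at an unadjusted p below 0.05 in edgeR's test.

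In CPM, which is not corrected for transcript length, the glutamate transporters had the highest levels of the 10 genes in both groups. Slc1a2 encodes GLT-1, which removes most of the glutamate released in the forebrain (chr2:102658659-102790784, plus strand). It stood at 2993 CPM in APP.3, 3193 CPM in APP.4, 2944 CPM in WT.1 and 2584 CPM in WT.2. The lower APP/PS1 library lay just above the higher WT library. The log2 fold change was 0.16, with a 95% interval of 0.0023 to 0.32 and an adjusted p of 0.403 in edgeR's quasi-likelihood test. Slc1a3 encodes the second glial transporter, GLAST (chr15:8634124-8710764, minus strand). Its level was 486 CPM in APP.3, 535 CPM in APP.4, 442 CPM in WT.1 and 429 CPM in WT.2. These groups did not overlap either, which held for 21.3% of all features in the higher direction. The log2 fold change of Slc1a3 was 0.23, with a 95% interval of 0.07 to 0.39 and an adjusted p of 0.217 in edgeR's quasi-likelihood test. For both transporters the interval left out a fold change of 1.5.

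S100b, Aldh1l1 and Gja1 overlapped between the groups. S100b encodes a calcium-binding protein that astrocytes also secrete (chr10:76253853-76261159, plus strand), and it measured 86.7 CPM in APP.3, 103 CPM in APP.4, 77.2 CPM in WT.1 and 86.8 CPM in WT.2. Aldh1l1 encodes a folate enzyme used as a marker of all astrocytes (chr6:90486427-90600203, plus strand), with 50.8 CPM in APP.3, 47.6 CPM in APP.4, 41.3 CPM in WT.1 and 50.6 CPM in WT.2. Gja1 encodes connexin 43, the main gap junction protein of astrocytes (chr10:56377330-56402513, plus strand), with 130 CPM in APP.3, 165 CPM in APP.4, 132 CPM in WT.1 and 120 CPM in WT.2. For S100b and Gja1 the library APP.4 alone lay above both WT libraries, and for Aldh1l1 the library WT.1 alone lay apart. The log2 fold changes were 0.21 (95% interval -0.0055 to 0.43) for S100b, 0.10 (-0.13 to 0.33) for Aldh1l1 and 0.22 (-0.02 to 0.47) for Gja1. Their adjusted p values in edgeR's quasi-likelihood test were 0.426, 0.773 and 0.462, and each interval left out a fold change of 1.5.

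The direction of Aldh1l1 rested on WT.1, without which its log2 fold change was -0.04. Without APP.4, that of Gja1 was 0.05, that of S100b 0.09, that of Slc1a2 0.12 and that of Slc1a3 0.16. With APP.3 left out in place of APP.4, S100b, Slc1a2, Slc1a3 and Gja1 had log2 fold changes of 0.34, 0.21, 0.30 and 0.38. Their adjusted p values in edgeR's quasi-likelihood test were then 0.000849, 0.00197, 7.31e-05 and 4.1e-05, in a fit that called 3.27% of all features, and all 4 stayed below the fold threshold.

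**Figure D2:**
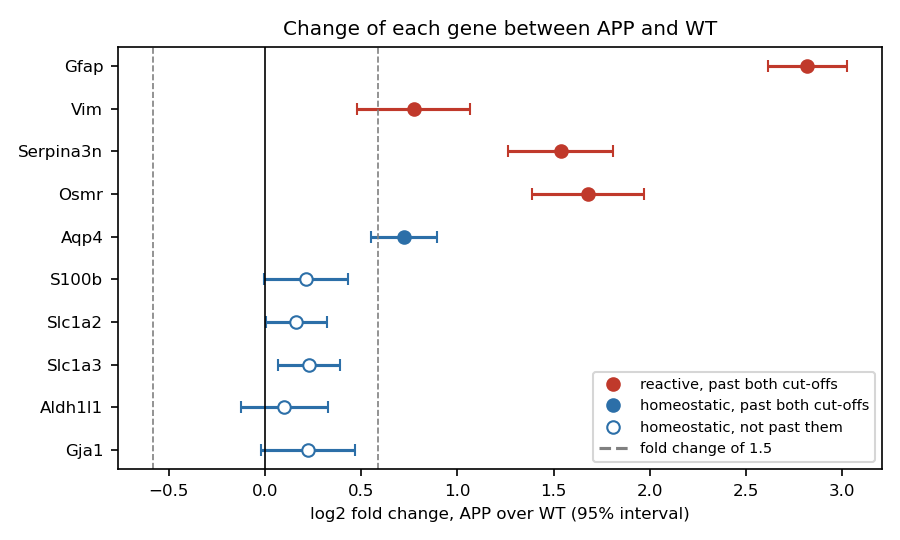
Log2 fold change of each gene, APP/PS1 over WT, with its 95% interval. Gfap lies at 2.82 and the other reactive genes between 0.77 and 1.68, whereas the homeostatic genes lie between 0.10 and 0.72.

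Reactive and homeostatic genes were then set against each other within each library, a comparison that does not depend on how libraries are scaled. The ratio of Gfap to Aldh1l1 was 6.44 and 7.82 in the APP/PS1 libraries, and 1.14 and 1.03 in the WT libraries. The ratio of Gfap to Aqp4, the homeostatic gene that rose, was 1.73 and 1.74 in APP/PS1, and 0.388 and 0.423 in WT. For each of the 6 homeostatic genes, both APP/PS1 ratios lay above both WT ratios.

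On the log2 CPM scale, the level of Gfap minus the mean level of the 6 homeostatic genes was 0.49 and 0.53 in the APP/PS1 libraries, and -2.10 and -1.96 in the WT libraries. For Osmr the same difference was -4.06 and -4.14 in APP/PS1, and -5.54 and -5.45 in WT. For Serpina3n it was -3.90 and -3.97 in APP/PS1, and -5.11 and -5.27 in WT. Vim showed the smallest shift, from -4.14 and -4.33 in WT to -3.82 and -3.66 in APP/PS1. Each of the 4 reactive genes thus stood higher against the homeostatic genes in both APP/PS1 libraries than in either WT library.

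Levels per kilobase of transcript allow the genes to be ordered. In WT the order of mean CPM per kilobase was Slc1a2 (417), Slc1a3 (107), S100b (55.3), Gja1 (41.1), Aqp4 (24.2), Gfap (18.7), Aldh1l1 (15.4), Vim (4.91), Serpina3n (2.67) and Osmr (0.882). No pair of neighbours in this WT order overlapped over its libraries. In APP/PS1 Gfap moved from the sixth place to the second at 132 CPM per kilobase, beside 126 for Slc1a3, while the other 9 genes kept their order among themselves. There Gfap and Slc1a3 overlapped, at 124 to 141 and 119 to 133 CPM per kilobase, and so did Vim and Serpina3n, at 7.497 to 9.304 and 7.548 to 7.946.

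**Figure D3:**
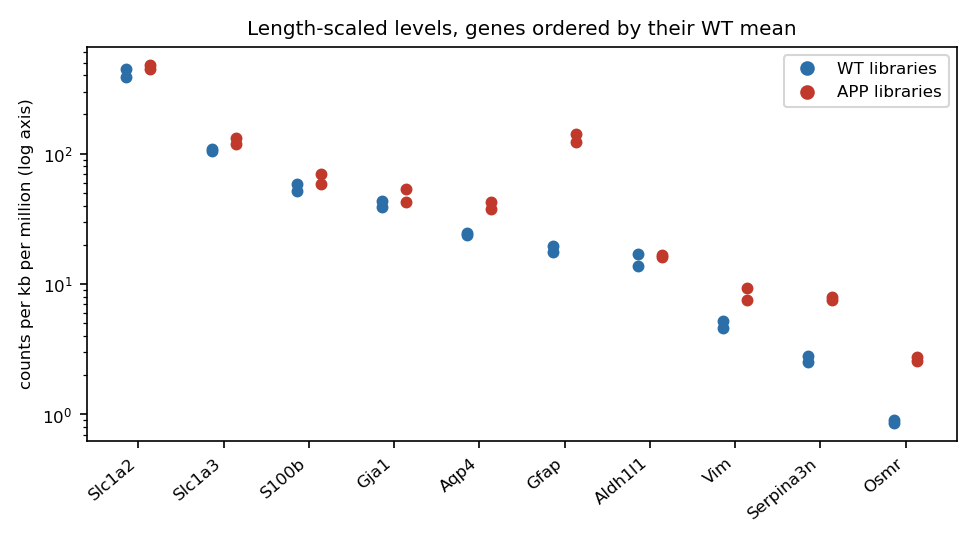
Level of each gene per kilobase of transcript, in CPM per kilobase on a log axis, by library, with genes in the order of their WT means. Gfap has a WT mean of 18.7 and an APP/PS1 mean of 132, which places it level with Slc1a3 in APP/PS1.

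The 10 genes were represented by 27 transcripts of the 37539 in the table. Gfap had a pair of coding transcripts, and both changed. They share their first 1162 coding bases and then end differently. Gfap-201 encodes the main filament protein (GFAP alpha). Gfap-202 ends in an alternative last coding exon. The coding end of Gfap-202 is shown because its own bases distinguish this transcript, whose share of the gene's counts is described next. The last 15 shared bases are in lower case and the 125 bases of its own coding end, with the stop codon, are in capitals, 5′ to 3′ on the minus strand of GRCm38 (chr11:102891396-102891520).
Gfap-202: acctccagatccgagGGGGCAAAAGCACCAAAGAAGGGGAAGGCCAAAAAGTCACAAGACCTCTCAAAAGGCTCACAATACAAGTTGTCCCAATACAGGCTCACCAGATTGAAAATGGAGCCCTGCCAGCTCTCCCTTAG

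Gfap-201 took 9287 and 11254 counts in the APP/PS1 libraries, and 1963 and 1776 in the WT libraries. Its log2 fold change was 2.85, with an adjusted p of 1.02e-10 in edgeR's quasi-likelihood test over transcripts. Gfap-202 took 212 and 279 counts in the APP/PS1 libraries, and 98 and 77 in the WT libraries. It rose less, with a log2 fold change of 1.89, a standard error of 0.17 and an adjusted p of 2.22e-05 in the same edgeR test.

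The share of Gfap counts carried by Gfap-202 was 2.23% in APP.3 (exact Clopper-Pearson 95% interval 1.94 to 2.55), 2.42% in APP.4 (2.15 to 2.72), 4.76% in WT.1 (3.88 to 5.76) and 4.16% in WT.2 (3.29 to 5.17). Both APP/PS1 shares lay below both WT shares, and the intervals did not meet. These intervals treat reads as independent draws, so they cover counting error only and not the spread between mice. The reads carried no molecular identifiers, so repeated copies of a molecule could make the intervals too narrow. The change of Gfap-202 against its gene as a whole had an unadjusted p of 6.82e-05 and a false discovery rate of 0.140 in edgeR's diffSpliceDGE, which called 0.0338% of the 26648 transcripts tested and none of the 10 genes' transcripts, of which 3 stood at an unadjusted p below 0.05. How reads that fit both transcripts were assigned is not given in the sources used here.

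Across all 27 transcripts 7 were called, all higher in APP/PS1, where 0.807% of the 37539 transcripts were called in either direction and 0.749% higher. They were both Gfap transcripts, Osmr-201, the only counted transcripts of Vim, Serpina3n and Aqp4, and Slc1a3-207. Slc1a3-207, a non-coding processed transcript, took 41 and 66 counts in the APP/PS1 libraries, and 29 and 20 in the WT libraries. Its log2 fold change was 1.53 with an adjusted p of 0.0223 in edgeR's quasi-likelihood test, but it made up at most 0.399% of the counts of Slc1a3 in any library. Without APP.4 its adjusted p was 0.0527. The main coding transcript of Slc1a3 had a log2 fold change of 0.23 and was not called.

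Slc1a2 had a pair of abundant coding transcripts, 11595 and 2127 bases long. The longer carried 84.7% to 84.9% of the counts of the gene in every library and the shorter carried 14.9% to 15.1%. Osmr had, beside Osmr-201, a pair of intron-retaining transcripts, of which Osmr-202 took 2 and 9 counts in the APP/PS1 libraries and 12 and 8 in the WT libraries, and Osmr-205 took 20 and 23, and 14 and 6. Osmr-201 itself had 381 and 420 counts in APP/PS1, and 162 and 150 in WT.

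**Figure D4:**
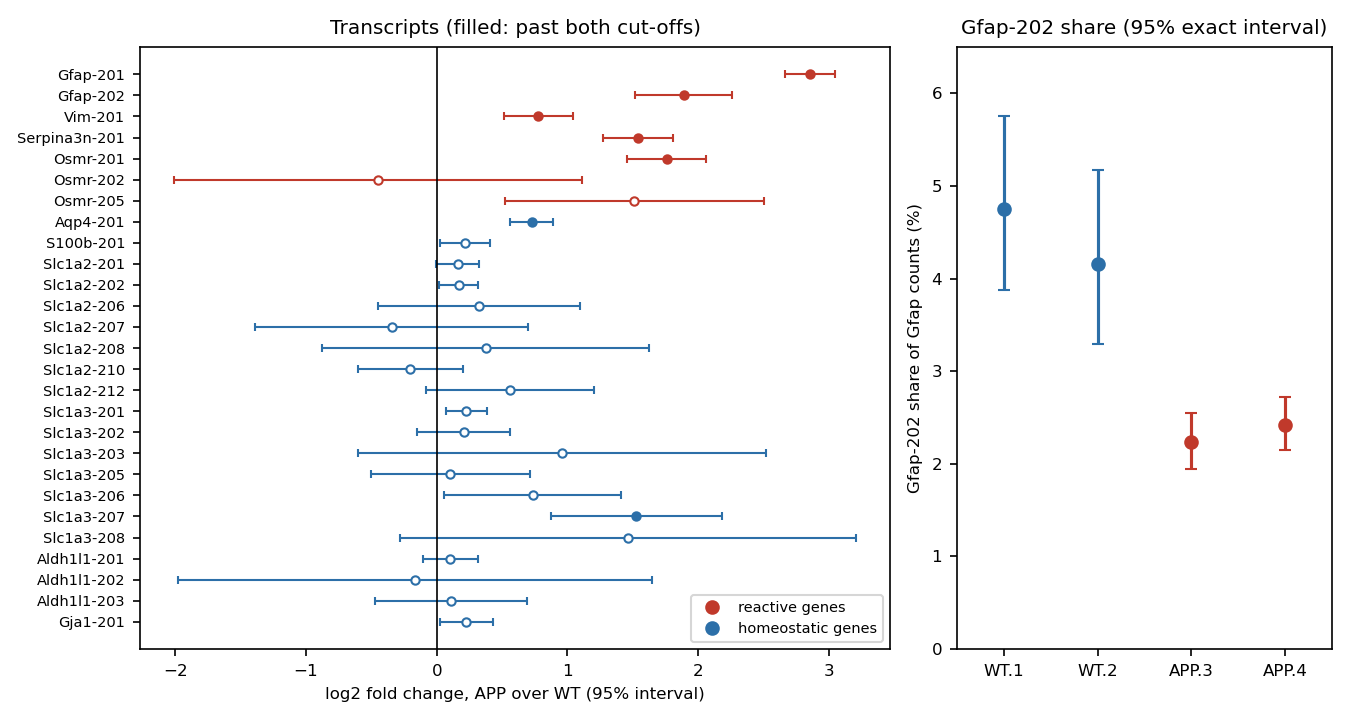
Transcripts of the 10 genes, with the log2 fold change of each transcript and its 95% interval, and the share of Gfap counts carried by Gfap-202 in each library. Gfap-202 changed by 1.89 against 2.85 for Gfap-201, and its share lies between 2.23% and 2.42% in APP/PS1 and between 4.16% and 4.76% in WT.

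Promoters were searched because the reactive genes moved together and because STAT3 and AP-1 are transcription factors known in reactive astrocytes. The windows, from RefSeq on GRCm38.p6, ran from 250 bases before to 50 after the start, and 9 of the 10 genes had one. The letters TTCNNNGAA (STAT) stood in 8.30% of 32851 promoters and in those of Gfap and Slc1a3. The letters TGANTCA (AP-1) stood in 7.81% of promoters and in those of Osmr and Gja1. Both strands were searched, and no promoter of these genes held both motifs. Thus 1 reactive and 1 homeostatic gene held each motif. The 60 bases around each match are shown 5′ to 3′ on the strand of the gene, with the match in capitals, from chr11:102897186-102897245 (Gfap, minus strand), chr15:8710870-8710929 (Slc1a3, minus strand), chr15:6874299-6874358 (Osmr, minus strand) and chr10:56377254-56377313 (Gja1, plus strand). A match describes these letters and is not evidence of binding.
Gfap: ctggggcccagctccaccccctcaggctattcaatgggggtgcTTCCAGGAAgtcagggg
Slc1a3: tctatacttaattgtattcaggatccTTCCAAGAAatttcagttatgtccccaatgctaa
Osmr: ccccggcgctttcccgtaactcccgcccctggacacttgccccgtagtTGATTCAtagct
Gja1: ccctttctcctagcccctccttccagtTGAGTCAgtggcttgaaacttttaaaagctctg

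Other genes of each pathway were examined from lists taken by role. These lists are described by their counts and medians, without a test of the list, and several of the genes called in them also belong to the list of changed genes that the study made from these libraries, so they are not independent evidence of direction. Of 8 further genes known to rise in reactive astrocytes of many kinds, 5 had a positive log2 fold change and 1 was called. It was Aspg, an asparaginase, with 194 and 140 counts in the APP/PS1 libraries and 57 and 53 in the WT libraries. Its log2 fold change was 2.01 with a standard error of 0.24 and an adjusted p of 0.00721 in edgeR's quasi-likelihood test. Cd44, a hyaluronan receptor, had a log2 fold change of 0.40 and Cp, which encodes ceruloplasmin, had -0.08, and neither passed the test. Hspb1 went the other way at -0.79, with both APP/PS1 libraries below both WT libraries and an adjusted p of 0.36 in edgeR's test. S1pr3 had -0.31 and its groups overlapped. At an unadjusted p below 0.05 in edgeR's test stood 3 that were higher, Cxcl10, Aspg and Cd44, and 1 that was lower, Hspb1. The median over the 8 genes was 0.22.

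Of 11 genes of the A1 set, named for astrocytes exposed to inflammatory stimuli, 10 had a positive log2 fold change and 3 were called, with a median of 0.59. They were Psmb8, an immunoproteasome subunit (log2 fold change 1.41), Ggta1, a galactosyltransferase (1.27), and H2-D1, a class I histocompatibility antigen (0.96). Their adjusted p values in edgeR's quasi-likelihood test were 0.0204, 0.0129 and 0.0156, and that of Psmb8 was 0.0521 without WT.1 and 0.0598 without WT.2. Microglia also express Psmb8 and H2-D1. Of 9 genes of the A2 set, named for astrocytes after ischaemia, 0 were called and the median was 0.15. DESeq2 called 0 of them, edgeR's exact test 1 and its likelihood ratio test 2. At an unadjusted p below 0.05 in edgeR's test stood 3 that were higher, Clcf1, Cd14 and Cd109, and 1 that was lower, Ptgs2, where 7.36% of all features were higher and 4.78% lower at that level.

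Of 36 further genes enriched in astrocytes, 29 had a positive log2 fold change, which held for 49.7% of all features, and 2 were called. The median was 0.20, close to that of the 6 homeostatic genes. Fabp7, a brain fatty acid-binding protein, stood at 21.1 and 24.5 CPM in APP/PS1 and 11.8 and 15.1 CPM in WT (log2 fold change 0.77, adjusted p 0.0347 in edgeR's test). Ednrb, the endothelin receptor type B, stood at 53.7 ± 8.18 CPM in APP/PS1 and 35.5 ± 0.737 CPM in WT (log2 fold change 0.60, adjusted p 0.0335 in edgeR's test). Without WT.1 the adjusted p of Fabp7 was 0.088, and without WT.2 that of Ednrb was 0.0896. Without APP.4 the log2 fold change of Ednrb was 0.43, below the fold threshold. Glul, the glutamine synthetase of astrocytes, had a log2 fold change of -0.0043.

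Partners of the 10 genes were rarely called. Of 19 counted ligands, receptors and signalling genes of the cytokine and STAT3 pathway, 0 were called and the median was 0.10. At an unadjusted p below 0.05 in edgeR's test stood 4, among them Stat3, Jak1 and Clcf1, while DESeq2 called 0 and the likelihood ratio test called 1, Clcf1, which had 10 and 4 counts in APP/PS1 and 2 and 0 in WT. Stat3 came nearest, and was singled out after its values were seen. It stood at 47.8 and 42.6 CPM in APP/PS1 and at 30.7 and 30.3 CPM in WT. Its log2 fold change was 0.57, just under the fold threshold of 0.58, with an adjusted p of 0.0156 in edgeR's quasi-likelihood test. On leaving out each library the log2 fold change ranged from 0.48 (without APP.3) to 0.65 (without APP.4, where Stat3 was called), and without WT.2 the adjusted p was 0.0546. Socs3, a feedback inhibitor of that pathway, had 63 and 51 counts in APP/PS1 and 99 and 76 in WT, with a log2 fold change of -0.21. Osm, the ligand of the Osmr receptor, was among the 4 listed genes with no counted row.

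None of 12 further intermediate filament and linker genes was called (median -0.05), and Nes, which encodes nestin, had a log2 fold change of -0.39. None of 14 genes of glutamate uptake and recycling was called (median -0.005), including the neuronal transporter Slc1a1 at -0.08. None of 11 further connexins and pannexins was called (median -0.08), including the astrocytic Gjb6 at -0.08. None of 15 counted aquaporins and members of the end-foot anchoring complex was called (median -0.06). Among them the potassium channel Kcnj10 had a log2 fold change of 0.43, with an adjusted p of 0.489 in edgeR's test. In edgeR's test Aqp4 thus passed the threshold and no counted gene of its anchoring complex did, although the difference between them was not tested. In the filament, glutamate, connexin and end-foot lists, 0, 5, 1 and 2 genes stood at an unadjusted p below 0.05 in edgeR's test, and DESeq2, the exact test and the likelihood ratio test each called 0. Of 9 counted S100 genes beside S100b, 1 was called, S100a13 (0.79, adjusted p 0.0365 in edgeR's test, and 0.07 without WT.1 and 0.201 without WT.2). The S100 list had a median of 0.44, with 8 of the 9 genes higher and 4 at an unadjusted p below 0.05 in edgeR's test, all of them higher. Of 13 other folate enzymes, 1 was called, the mitochondrial paralog Aldh1l2 (0.90, adjusted p 0.0173 in edgeR's test, and 0.0687 without WT.2).

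**Figure D5:**
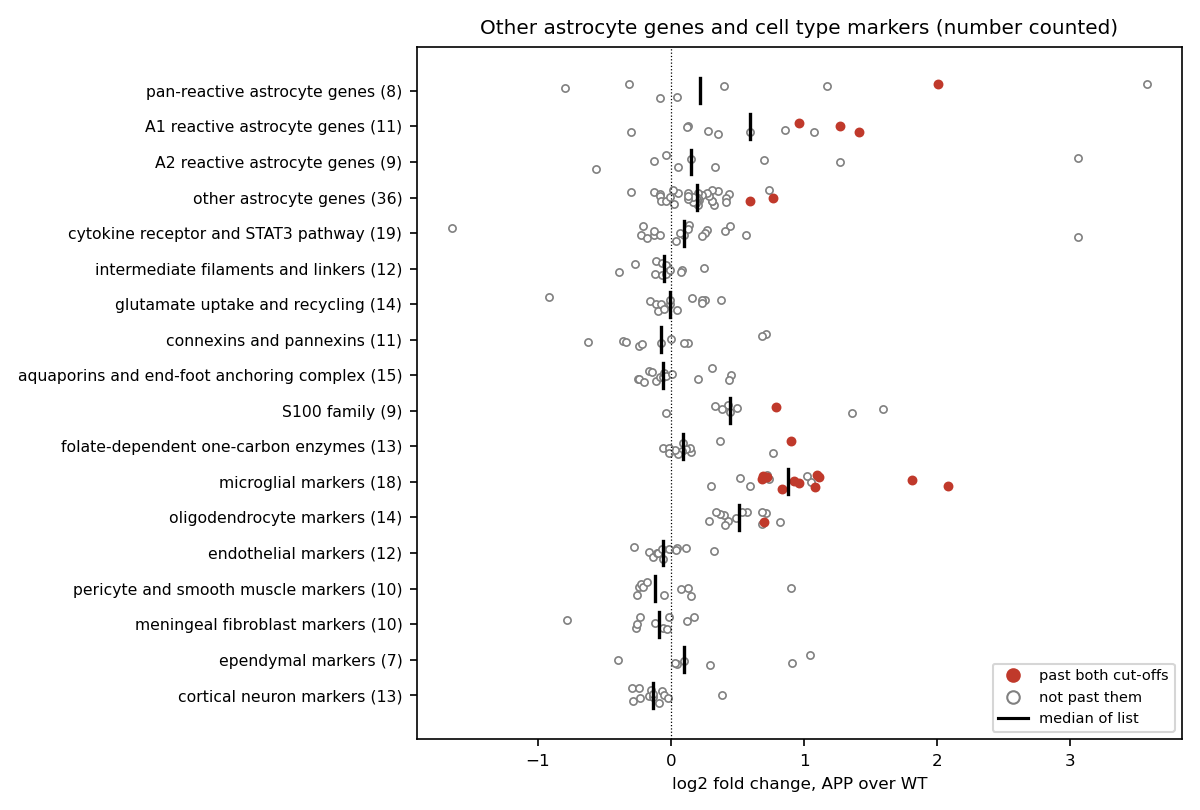
Log2 fold change of every counted gene in most of the astrocyte, partner and cell-type lists, with the median of each list marked. Lists of the Serpina3 cluster, oligodendrocyte precursors, choroid plexus, hypothalamus, thalamus, hippocampus and immediate-early genes are not drawn. The medians of the cytokine, filament, glutamate, connexin and end-foot lists lie between -0.08 and 0.10, with others at 0.20 for further astrocyte genes and at 0.88 for microglial markers.

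Markers of other cell types and regions moved with the same comparison. All 18 microglial markers had a positive log2 fold change and 11 were called, with sums of 644.3 to 766.7 CPM in APP/PS1 and 372.8 to 380.2 CPM in WT and a median of 0.88. Oligodendrocyte markers summed to between 1810 and 2081 CPM in APP/PS1 and between 1345 and 1494 CPM in WT, with a median of 0.51. All 14 had a positive log2 fold change, 13 stood at an unadjusted p below 0.05 in edgeR's test and 1 was called (Mag). Markers of oligodendrocyte precursors summed to between 121.8 and 123.8 CPM in APP/PS1 and between 102.6 and 103.5 CPM in WT, with 8 of 8 positive, a median of 0.25, 3 at an unadjusted p below 0.05 in edgeR's test and 0 called by any of the tools run. Hypothalamic markers summed to between 35.4 and 41.9 CPM in APP/PS1 and between 16.2 and 18.4 CPM in WT, with 4 of 13 called, and 3 of the 13 were at 0 in at least 1 library. Thalamic markers summed to between 120 and 128 CPM in APP/PS1 and between 95.5 and 96.8 CPM in WT. Hippocampal markers summed to between 196.9 and 259.3 CPM in APP/PS1 and between 154.5 and 183.9 CPM in WT. Of them 6 of 9 were positive and 0 called, with a median of 0.07. Choroid plexus markers summed to between 13.1 and 13.4 CPM in APP/PS1 and between 9.72 and 11.6 CPM in WT. Of them 2 of 5 were positive and 0 called, with a median of -0.09. The sums of these lists moved in the same direction as Gfap, Vim, Serpina3n, Osmr and Aqp4, and their part in those values was not tested.

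Markers of meningeal fibroblasts, cells that also express Vim, summed to between 53.9 and 65.3 CPM in APP/PS1 and between 58.3 and 70.5 CPM in WT, with 0 of 10 called by any of the tools run and 1 at an unadjusted p below 0.05 in edgeR's test. Pericyte and smooth muscle markers had 0 of 10 called, with a median of -0.12. DESeq2, the exact test and the likelihood ratio test each called 1, Notch3, which had a log2 fold change of 0.91. Of 10 immediate-early genes 0 had a positive log2 fold change and 2 were called lower, Arc (-0.83) and Dusp1 (-0.59), where 0.0381% of all features were called lower, and their relation to the astrocyte genes was not tested.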

How the data were processed

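The deposited table holds raw read counts per transcript for the 4 libraries, made by the authors from ribosomal-RNA-depleted, strand-specific paired reads aligned with FANSe2 to mouse Ensembl RNA. Transcripts under 10 reads were dropped by the authors. Whether counting used strand is not given in the sources used here, so reads of Gfap and S100b cannot be told from those of the opposite-strand Gm26668 and Dip2a. Gm26668 had 39 and 36 counts in APP/PS1 and 65 and 58 in WT, where Gfap had 9499 and 11533, and 2061 and 1853. Dip2a had 1975 and 2198 counts, and 3081 and 2544. The submitters' processing notes name CASAVA 1.8, edgeR and the human build hg19, which does not match mouse transcripts. Columns with the authors' fold changes and p-values, and 4 further per-library columns, were not used.

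Counts were summed per gene through GENCODE M21 (GRCm38), which held 36858 of 37539 identifiers (98.2%). The table's own symbols found 25 of the 27 transcripts of the 10 genes. The library columns of the APP/PS1 group name the group but not which of its samples. edgeR 4.0.16 (R 4.3.3) was run with TMM scaling and the quasi-likelihood test, with Benjamini-Hochberg adjustment over all features, and was tested on simulated data. A gene was called at a false discovery rate below 0.05 and a fold change of at least 1.5. Log2 levels used a prior count of 2. Levels per kilobase divided each transcript's counts by its length. Alternatives were library totals, TMM over protein-coding features, DESeq2 1.42.0, edgeR's exact and likelihood ratio tests, a minimum of 10 counts in every library, no filter, sums by deposited symbol, other thresholds and leaving out each library.

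With 2 mice per group, edgeR judged each gene against the spread between these samples, moderated toward that of all features. An exact permutation test of 1 gene cannot go below 0.333. The genes and lists were chosen with earlier results of these data known. Besides the 10 genes, the text names up to 5 genes per list among those called without overlap between the groups, the Serpina3, Slc1a and connexin relatives, and a few that did not pass, chosen after their values were seen. Some items are not reported here.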

Additional observations from a re-analysis of the deposited data

How the results depend on the processing

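Of the 10 astrocyte genes, 5 were called under each other setting except a fold change of at least 2, with 3 (Gfap, Serpina3n and Osmr), and the fit without WT.2, with 4. Leaving out each library in turn gave 4 to 5 called genes, 6 to 7 called transcripts and 0 transcripts called against their gene, with medians of 1.573 to 1.643 for the reactive and 0.134 to 0.316 for the homeostatic genes. The log2 fold change of Aldh1l1 then ranged from -0.041 (without WT.1) to 0.256. The counts that follow take in, beside the 10 genes, those called in the astrocyte, S100 and folate lists, and Stat3. The setting with no filter repeated the main fit, as the filter left out 0 features, so its values could not differ. Of 226 values of single genes under alternatives, 215 kept their direction and their call by both thresholds together, 9 lost a call, 1 gained one and 1 reversed. Among those that kept their call, S100b, Slc1a2, Slc1a3 and Gja1 without APP.3 and Stat3 without WT.2 crossed the false discovery rate threshold while below the fold threshold. Slc1a3-207 had an adjusted p of 0.105 with DESeq2. In fits that left out 1 library, the lone library was assumed to vary like the other group. The number of called features differed by more than 1.5 times from the 162 called here with the edgeR exact test (354), the likelihood ratio test (391), without APP.3 (601), without APP.4 (478) and at a fold change of at least 2 (91). Called transcripts differed likewise from 303 with the likelihood ratio test (483), without APP.3 (875) and without APP.4 (698), and transcripts called against their gene were 9 of all tested, and 1 to 5 on leaving out a library. The median log2 fold change of all features was -0.001 here, 0.004 with library totals and 0 with TMM over protein-coding features and with DESeq2. No paired analysis was possible because the APP/PS1 columns carry the numbers 3 and 4, which match no number of a WT column.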
